A study of Schizosaccharomyces pombe with 3 samples.

Results

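The cell division cycle (cdc) genes of fission yeast, Schizosaccharomyces pombe, were examined in a chromatin immunoprecipitation map of Tup11. The members were all array features named cdc followed by a number, in whole or after the prefix that marks an intergenic region. There were 53 such features of 10240 on the arrays. They comprised 26 of the 5169 intergenic features and 27 of the 5071 open reading frame (ORF) features, and they belonged to 27 genes. Tup11 carrying a green fluorescent protein tag (Tup11-GFP) was precipitated with a polyclonal antibody to GFP from cells in mid-log growth in rich YES medium. Each spotted array of PCR products received amplified precipitate and amplified input, which the protocol assigns to Cy5 and Cy3. The single group held 3 two-colour arrays from separate experiments, replicates 1 and 2 on print batch E120D and replicate 3 on print batch F060D. All arrays carried the same tagged strain and medium, and no untagged strain, deletion mutant or stress condition was analysed here. Enrichment is therefore relative to the input and the rest of the genome, not to cells that lack the tag.

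Tup11 is a corepressor that acts with Tup12 and Ssn6 and is brought to DNA by sequence-specific factors, where it is known for holding stress and nutrient genes in check. The cdc genes were named from mutants that stop at a defined point of the cell cycle, and their products start mitosis, copy DNA, build the contractile ring and give the signal for septation. Most of them are expressed in growing cells, and they are not known as Tup11 targets. The transcription of a few, among them cdc18 and cdc22, peaks at the start of DNA synthesis through the MBF complex, which contains Cdc10.

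Each value is a log2 ratio of precipitate to input, centred so that the median feature of each array is 0, and each feature is the mean of its spots with signal in both channels. The files do not say which scanner channel held which dye. Read with the same channel letters, replicate 3 ran against the others, with r = -0.54 across the 7771 features shared with replicate 1 and r = -0.38 across the 4408 shared with replicate 2. Between replicates 1 and 2, r was 0.72 across 4289 features. The direction used here follows the channel that the deposited value tables track, which is channel B on replicates 1 and 2 and channel A on replicate 3. It is likely but not settled, so the comparisons over the set and the features described in full are also given with the sign of replicate 3 turned. Every other value on replicate 3, and every rank on it, holds in the likely direction only and changes sign in the other. In this direction the 5 mitochondrial features measured had medians of -3.39, -4.06 and -2.12 on replicates 1, 2 and 3. Both channels had signal in 14403, 7371 and 19926 of 20488 spots on the 3 arrays.

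The loss of spots touched the cdc intergenic features most. Of the 26, 13 were measured on replicate 1, 3 on replicate 2 and 25 on replicate 3, against 68.3%, 31.3% and 96.4% of all intergenic features. Only 3 were measured on all arrays, those upstream of cdc3, cdc5 and cdc16. In 34.6% of them on replicate 1 and 53.8% on replicate 2 the precipitate gave a signal and the input gave none, against 25.1% and 48.9% of all intergenic features. Of the 27 cdc ORF features, 21, 14 and 27 were measured on replicates 1, 2 and 3, and 14 on all arrays. Of all ORF features 54.0% were measured on all arrays, and of all intergenic features 29.9%. The feature upstream of cdc1 had no usable value on any array, and no feature named for the region upstream of cdc19 was among the members. All 27 genes were found in the reference annotation, where cdc19 and cdc21 appear as mcm2 and mcm4.

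To show what lies upstream of the members whose intergenic features were highest among those read on more than 1 array with matching sign, 2 stretches of 300 bases before the annotated transcript start are printed from the RefSeq genome ASM294v3, on the strand of the gene. The set was chosen after the values were seen. Capitals mark ACGCGN on either strand, which covers the core of the MBF site, ACGCGT, with any last base. Neither window overlaps an annotated mRNA. The cdc22 window lies at chrI:4226670-4226969 on the plus strand and the cdc18 window at chrII:2217985-2218284 on the minus strand.
cdc22: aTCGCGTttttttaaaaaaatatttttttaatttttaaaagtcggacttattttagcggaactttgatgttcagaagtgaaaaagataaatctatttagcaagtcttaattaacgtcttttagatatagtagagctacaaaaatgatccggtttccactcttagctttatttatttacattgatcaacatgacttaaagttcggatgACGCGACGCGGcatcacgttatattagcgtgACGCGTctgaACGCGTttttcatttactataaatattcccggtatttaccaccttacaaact
cdc18: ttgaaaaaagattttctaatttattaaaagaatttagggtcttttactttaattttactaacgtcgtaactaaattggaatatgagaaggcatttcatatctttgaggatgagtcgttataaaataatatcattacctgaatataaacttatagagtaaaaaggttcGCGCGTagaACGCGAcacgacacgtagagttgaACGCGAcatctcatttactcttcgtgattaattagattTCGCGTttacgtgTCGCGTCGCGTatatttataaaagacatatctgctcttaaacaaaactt

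The cdc22 window held 5 matches to ACGCGN, of which 2 were ACGCGT. The cdc18 window held 6 matches to ACGCGN and none to ACGCGT. Over the 5123 windows of protein-coding genes, 10.6% held ACGCGN and 2.89% held ACGCGT. In these windows, 3 of the 27 cdc genes held ACGCGN (cdc18, cdc20 and cdc22) and 1 held ACGCGT (cdc22). The looser word was added after the cdc18 window had been read. A forkhead word, GTAAACA, was found in 6 cdc windows (cdc4, cdc13, cdc15, cdc19, cdc20 and cdc23), against 17.0% of all windows. TGACGT, the core of the site of the stress factor Atf1-Pcr1, was found in the cdc28 window alone among the members, against 6.01% of all windows. In whole gaps it was found in 5 of 26 cdc gaps (cdc10, cdc13, cdc22, cdc25 and cdc28), against 14.6% of all gaps. CCCCTC, the element bound by the glucose-responsive factor Rst2, was in no cdc window and in 1.93% of all, and in 2 cdc gaps (cdc6 and cdc22), against 7.53% of all gaps. Both strands were searched, the ACGCGT matches are counted again in ACGCGN, and a match is a run of letters, not a shown binding site.

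Upstream of cdc22, which encodes the large subunit of ribonucleotide reductase, the maker of DNA precursors, the intergenic feature stood at 1.57 on replicate 1 and 2.17 on replicate 3. On replicate 2 only the precipitate gave a signal. Among intergenic features these were the percentiles 89.0 and 97.5. In a limma fit over 7898 features measured on at least 2 arrays, its mean was 1.87 with a standard error of 0.43 (adjusted p = 0.00049). That standard error was pooled over features and was the same for every cdc feature measured on 2 arrays. It does not measure the spread between the 2 values of this feature. Of 34 cdc features, only the region upstream of cdc22 was called above the array median at an adjusted p under 0.05. The share called above in that fit was 8.86% of all features and 16.4% of intergenic features. Below the median, the cdc20 ORF alone was called of the 34, against 4.11% of all features. Without replicate 2 the feature was called as well, but that setting holds the same 2 values and is no separate check. With the sign of replicate 3 turned its mean was -0.30, the positive and the negated value nearly cancelling. The feature covers the gap chrI:4225120-4226981, of 1862 bases before the coding sequence of cdc22, if its PCR product spans the gap. That gap held 3 matches to ACGCGT. The word was found in 3 of 26 cdc gaps (cdc10, cdc22 and cdc28), against 7.55% of the 3574 gaps. The cdc22 gap also held 1 TGACGT, 1 CCCCTC and 2 GTAAACA, the last a word found in 38.4% of gaps. ACGCGN was found in 6 of 26 cdc gaps (cdc5, cdc10, cdc18, cdc20, cdc22 and cdc28), against 25.5% of all gaps.

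The ORF of cdc22 read lower than its upstream region. Its values were -0.59, 0.51 and 0.44 on replicates 1, 2 and 3, at the percentiles 41.2, 80.3 and 89.4 among ORF features. It was thus high for an ORF on replicates 2 and 3, and its mean was 0.12 ± 0.62 (SD, n = 3, adjusted p = 0.84). The features named next were chosen after their values were seen. The gap after cdc22, upstream of SPAC1F7.06, read 0.95 and 1.12 on replicates 1 and 3. The SPAC1F7.06 ORF averaged 1.01 ± 0.36 (limma adjusted p = 0.026). The gap of the iron uptake genes fip1 and fio1 begins 7515 bases from the cdc22 coding start. There the features named for fip1 and fio1 averaged 3.02 ± 0.97 and 3.11 ± 0.84 (limma adjusted p = 2.6e-15 and 4.2e-16). A further feature of that gap, also named for fio1, averaged only 1.07 ± 0.24 (limma adjusted p = 0.016). On the other side of cdc22, the rho1 ORF averaged -0.24 ± 0.81 (limma adjusted p = 0.67). The region upstream of rho1, farther out on that side, read 1.17 and 0.83 on replicates 1 and 3. The SPAC1F7.06 ORF averaged 0.15 with replicate 3 turned. The cdc22 ORF thus lay between intergenic features above the array median, and its value was lower than both on replicates 1 and 3.

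Upstream of cdc18, whose product loads the replicative helicase at origins, the intergenic feature read 1.35 from 1 spot on replicate 1 and 0.90 from both spots on replicate 3. These were the percentiles 82.7 and 85.5 among intergenic features. In the fit over at least 2 arrays the mean of 1.13 did not pass the test (adjusted p = 0.065), and with replicate 3 turned it was 0.23. Its gap, chrII:2217874-2218539, held 6 matches to ACGCGN, a word found in 25.5% of all gaps, and none to ACGCGT. The cdc18 ORF ranged from -0.43 on replicate 1 to 1.50 on replicate 2, with 0.16 on replicate 3, so its 3 values did not share a sign.

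The region upstream of cdc10, which encodes a subunit of MBF, gave the widest disagreement between arrays among the members. It read 2.50 from 1 spot on replicate 1 and -0.29 on replicate 3, and the cdc10 ORF read 1.22 and -0.61 on the same arrays. Both features were thus high on replicate 1 and below the array median on replicate 3, and neither passed the test over at least 2 arrays (adjusted p = 0.073 and 0.71). With replicate 3 turned, their means were 1.39 and 0.92.

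**Figure D1:**
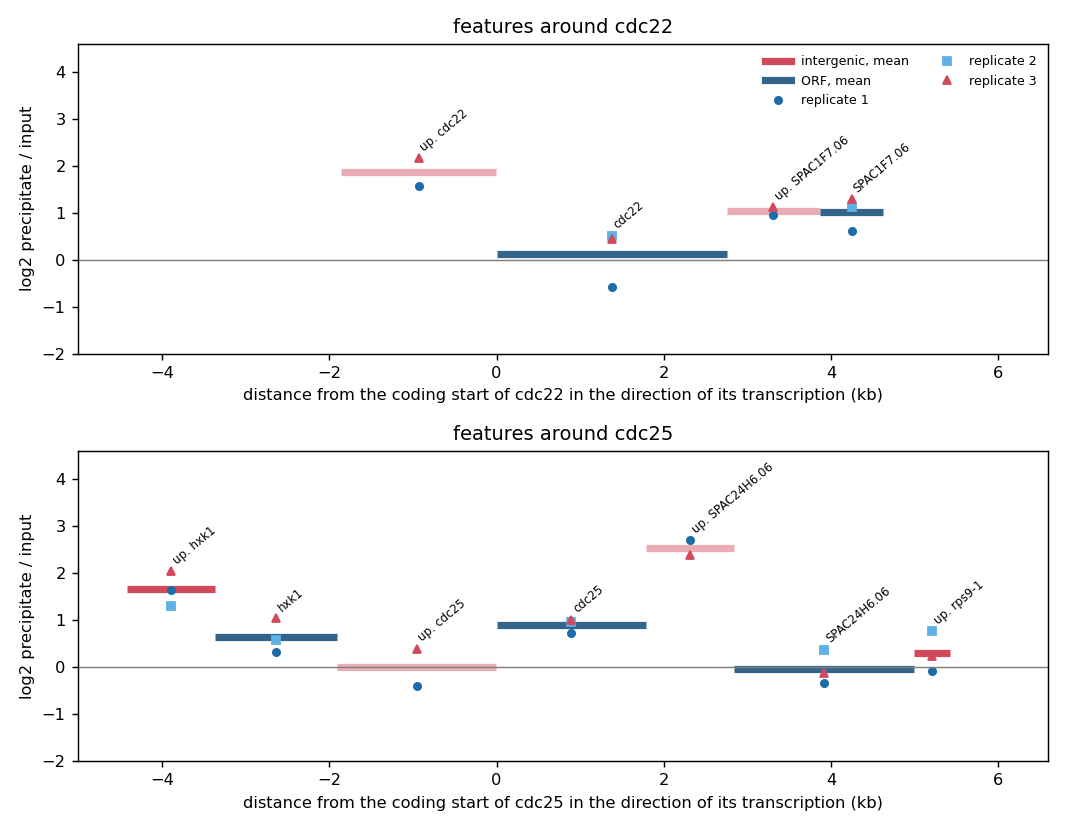
Log2 precipitate over input by distance in kb from the coding start of cdc22 (top) and cdc25 (bottom), in the direction of transcription. Bars are feature means, pale where only replicates 1 and 3 gave a value, and points are arrays. The bar upstream of cdc22 stands at 1.87, and the cdc25 ORF at 0.90 lies beside a downstream gap at 2.54.

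The 3 genes of mitotic entry were on the arrays: cdc25, the phosphatase that activates the mitotic kinase, cdc13, its B-type cyclin, and cdc2, the kinase itself. The cdc25 ORF (chrI:479750-481540) read 0.73, 0.97 and 1.01 on replicates 1, 2 and 3. It was above the array median on each array, at the percentiles 87.5, 92.8 and 96.7 among ORF features. Its mean was 0.90 ± 0.15 (SD, n = 3), the highest of the 17 cdc features measured on all arrays, and it missed the threshold in limma (adjusted p = 0.0501, unadjusted 95% interval 0.22 to 1.59). Its median percentile among the features measured on all arrays was 84.8, just under the 85th percentile that sets the binding list. It was called above in 7 of 18 alternative settings, and with replicate 3 turned its mean was 0.23 (adjusted p = 0.95).

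The upstream region of cdc25 did not share the level of its ORF. It read -0.41 on replicate 1 and 0.39 on replicate 3. The gap downstream of cdc25, upstream of SPAC24H6.06, read 2.70 and 2.38 on those arrays, and the region upstream of the hexokinase gene hxk1, which precedes cdc25, read 1.64, 1.31 and 2.04 on replicates 1, 2 and 3 (1.66 ± 0.37, limma adjusted p = 5.6e-05). The hxk1 ORF averaged 0.65 ± 0.37 (adjusted p = 0.19). The region upstream of hxk1 averaged 0.30 with replicate 3 turned (adjusted p = 0.95). These neighbours were named after their values were seen, and their part in the cdc25 value was not tested.

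The cdc13 ORF read -1.29 and -1.14 on replicates 1 and 2 and 0.35 on replicate 3. Replicate 3, the only array of its print batch, differed in sign from the others. The mean of -0.69 ± 0.90 did not pass the test in limma (adjusted p = 0.15). It was -0.93 with replicate 3 turned (adjusted p = 0.88). Upstream of cdc13 the values were 0.69 and 0.22 on replicates 1 and 3. For cdc2 the upstream region read -0.20 on replicate 3 alone, and the ORF read 0.42 and -0.26 on replicates 1 and 3.

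Across all cdc features measured on all arrays, none lay above the array median and 2 lay below it at an adjusted p under 0.05 (limma, Benjamini-Hochberg over 4285 features). The background was 11.0% above and 8.80% below over all features, 25.4% above and 0.904% below among intergenic features, and 2.89% above and 13.3% below among ORF features. At an unadjusted p under 0.05, 7 cdc features passed, of which 6 were low ORFs and 1 was the cdc25 ORF. These are 7 of 14 cdc ORFs and 0 of 3 cdc intergenic features, against 28.5% of ORF features (23.8% below and 4.71% above) and 39.0% of intergenic features. The count above was 0 with limma's robust prior and 1 with its trended prior. No cdc feature was on the binding list, which held 13.2% of all features, 30.0% of intergenic features and 3.62% of ORF features. Since 14 of the 17 features are ORFs, the counts are to be read against the ORF shares. With replicate 3 turned, 0 of the 4285 features and so no cdc feature was called in either direction, and 1 cdc feature had an unadjusted p under 0.05.

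The ORFs below the array median that passed were those of cdc20 and cdc27. They were 2 of the 14 cdc ORFs measured on all arrays, against 13.3% of all ORF features called below. The cdc20 ORF (chrII:3253889-3260488), which encodes the catalytic subunit of polymerase epsilon, read -1.95, -1.07 and -1.11 on replicates 1, 2 and 3. All its values were low, at the percentiles 1.83, 15.6 and 1.48 among ORF features. Its mean was -1.38 ± 0.50 (SD, n = 3, limma adjusted p = 0.0013). The call was kept in 13 of 18 alternative settings. Of these, the median of duplicate spots equals the mean for features with at most 2 spots, so it repeats the main values and is no separate check. It was lost without replicate 1 (mean -1.09, limma adjusted p = 0.21) and with replicate 3 turned (mean -0.64, limma adjusted p = 0.90). It was also lost with median pixel signal, in the deposited value tables and with limma's trended prior. The deposited tables and the trended prior called 0% of all features below. At 6600 bases it was the longest cdc ORF. Upstream of cdc20 the value was 0.26 on replicate 3, the only array that measured it.

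The cdc27 ORF (chrII:1061970-1063377), which encodes a subunit of polymerase delta, read -1.35, -1.39 and -0.16. It was low on both arrays of batch E120D and near the array median on batch F060D. Its mean was -0.96 ± 0.70 (SD, n = 3, adjusted p = 0.034). The call was kept in 8 of 18 alternatives, among them the median of duplicate spots, which repeats the main values. Its losses were not confined to the settings named next. It was lost without replicate 1 (mean -0.77, adjusted p = 0.48), without replicate 2 (mean -0.75, adjusted p = 0.31) and with replicate 3 turned (mean -0.86, adjusted p = 0.88), whereas without replicate 3 it was -1.37 (adjusted p = 0.0042).

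**Figure D2:**
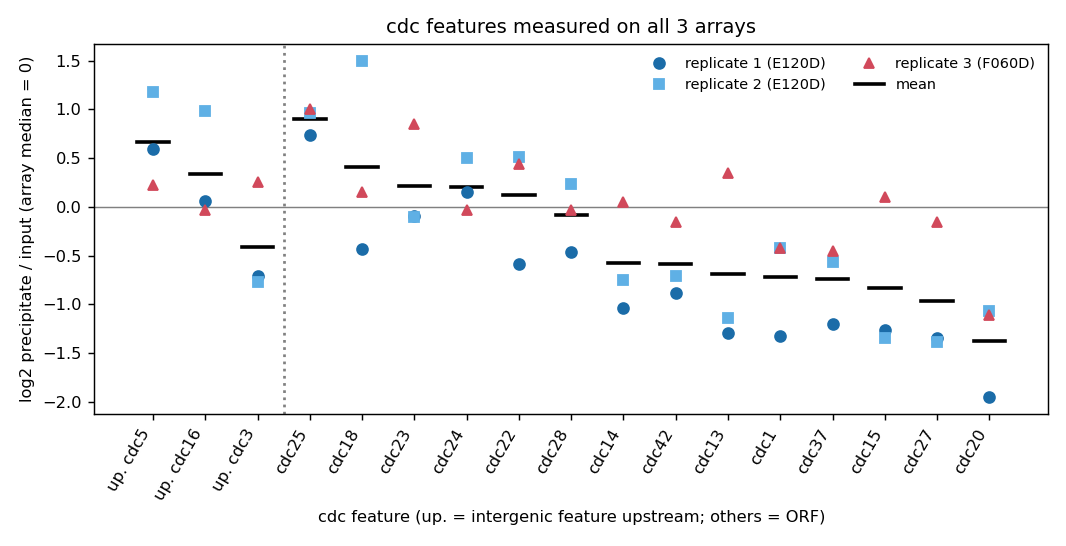
Log2 precipitate over input of the 17 cdc features measured on all 3 arrays, intergenic features left of the dotted line and ORF features right of it. Points are arrays and black bars are means. The cdc25 ORF lies above 0 on every array, the cdc20 ORF at or below -1.07 on every array, and several ORFs are low on replicates 1 and 2 but near or above 0 on replicate 3.

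The other replication genes had values on both sides of 0. Of their ORFs measured on all arrays, cdc1, another subunit of polymerase delta, averaged -0.72 ± 0.52, cdc23, the Mcm10 protein, 0.22 ± 0.55, and cdc24, a replication factor, 0.21 ± 0.27. None of these passed the test, and only cdc1 had the same sign on every array. The ORF of cdc6, the catalytic subunit of polymerase delta, read 0.08 and -0.29 on replicates 1 and 3. On replicate 3 alone, cdc17, the DNA ligase, read -0.44, and cdc19 and cdc21, subunits of the replicative helicase, read -0.59 and -0.54. On replicates 1, 2 and 3, 2 of 8, 3 of 7 and 3 of 11 replication ORFs lay above the array median. Of the 9 upstream regions of replication genes measured on replicate 3, 5 lay above 0, from 0.05 for cdc6 to 2.17 for cdc22. The others lay between -0.19 for cdc24 and -0.03 for cdc17. Upstream of cdc17 and cdc24, replicate 1 read 0.33 each, so these had opposite signs on the arrays that measured them.

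Of the 6 ORFs of ring and cell polarity genes, 0 of 4 lay above the array median on replicate 1, 0 of 2 on replicate 2 and 1 of 6 on replicate 3. The ORF of cdc15, an F-BAR protein of the contractile ring, read -1.27, -1.34 and 0.10 on replicates 1, 2 and 3. That of cdc42, a regulator of cell polarity, read -0.89, -0.71 and -0.15. Neither mean passed the test, at -0.84 ± 0.81 (adjusted p = 0.073) for cdc15 and -0.58 ± 0.38 (adjusted p = 0.24) for cdc42. On replicate 3, the ORFs of cdc12, the formin, cdc3, profilin, cdc4, a myosin light chain, and cdc8, tropomyosin, lay between -0.63 and -0.33. Upstream of the same genes the values were spread. Upstream of cdc15 and cdc42, the values were 1.02 and 0.84 on replicate 3, the only array that measured them, while the region upstream of cdc8 read -0.07 and -0.66 on replicates 1 and 3. The last was at percentile 3.15 among intergenic features on replicate 3, the lowest of the cdc upstream regions there, and with the sign turned it would be the highest. Upstream of cdc3 the arrays read -0.71, -0.77 and 0.26, a mean of -0.41 ± 0.58 (limma adjusted p = 0.44). Replicate 3, the only array of its print batch, again differed in sign from the others. With replicate 3 turned every array read below 0, and the mean was -0.58 ± 0.28 (limma adjusted p = 0.88). Upstream of cdc12 the value on replicate 3 was 0.43, and upstream of cdc4 the values were 0.65 and -0.37 on replicates 1 and 3.

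In the septation initiation network, the kinase cascade that starts ring contraction, the region upstream of cdc16, part of the GTPase-activating complex that holds the network off, read 0.06, 0.98 and -0.04. Replicate 2 stood apart from the others, and the mean of 0.33 ± 0.56 did not pass the test (adjusted p = 0.54). The region upstream of the kinase gene cdc7 read 1.00 and 0.03 on replicates 1 and 3, and that of cdc14 read 0.75 on replicate 3. The ORFs of these genes were lower on replicate 3, at -0.40 for cdc16, -0.54 for cdc7 and 0.05 for cdc14. Over all arrays the cdc14 ORF averaged -0.58 ± 0.56 (adjusted p = 0.25).

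Of the genes whose products act outside the division machinery, cdc5 and cdc28 encode splicing factors and cdc37 a partner of the chaperone Hsp90. Upstream of cdc5 the values were 0.59, 1.18 and 0.23 on replicates 1, 2 and 3, above the array median on each. The mean of 0.66 ± 0.48 did not pass the test (adjusted p = 0.17). The other feature of the same gap, named for SPAC644.11c, read 1.48 and 1.51 on replicates 1 and 3. The ORF of cdc28 averaged -0.08 ± 0.35 and that of cdc37 -0.74 ± 0.41 (adjusted p = 0.12), the cdc37 values being below the array median on all arrays. On replicate 3 the regions upstream of cdc28 and cdc37 read 0.04 and -0.26.

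Upstream regions and coding sequences of the cdc genes were set against each other on each array. The median of the cdc intergenic features minus that of the cdc ORF features was 1.02, 1.48 and 0.34 on replicates 1, 2 and 3, a mean of 0.95 ± 0.57 (SD, n = 3). The replicate 2 value rests on 3 intergenic features, and with replicate 3 turned the mean was 0.72 ± 0.94. No test was made, since 3 arrays cannot give a small p in an exact test and the features are not replicates. Above the array median were 10 of 13, 2 of 3 and 15 of 25 cdc intergenic features, against 75.3%, 80.1% and 62.2% of all intergenic features on replicates 1, 2 and 3. For ORFs, the counts were 6 of 21, 5 of 14 and 8 of 27, against 34.9%, 41.8% and 37.7% of all ORF features. With replicate 3 turned, its counts were 10 of 25 cdc intergenic features, against 37.8% of all, and 19 of 27 cdc ORFs, against 62.3% of all.

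Gene by gene, the upstream feature exceeded its own ORF in 20 of 25 cdc genes on replicate 3, with a median difference of 0.34, against 71.6% of all pairs and a median of 0.30. With the sign turned it did so in 5 of 25, with a median of -0.34, against 28.4% and -0.30. On replicate 1 it did so in 7 of 9 genes, with a median of 0.86, against 78.9% and 0.94. No cdc gene had both features measured on replicate 2. The widest gap in favour of the upstream region was at cdc22, at 2.16 and 1.73 on replicates 1 and 3. The reverse order on replicate 3 was seen at cdc23, cdc25, cdc8, cdc24 and cdc13, by 0.92 at most for cdc23, whose ORF read 0.85 on that array and -0.10 on both others. The cdc25 ORF exceeded its upstream region on both arrays, with upstream minus ORF at -1.15 and -0.61.

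**Figure D3:**
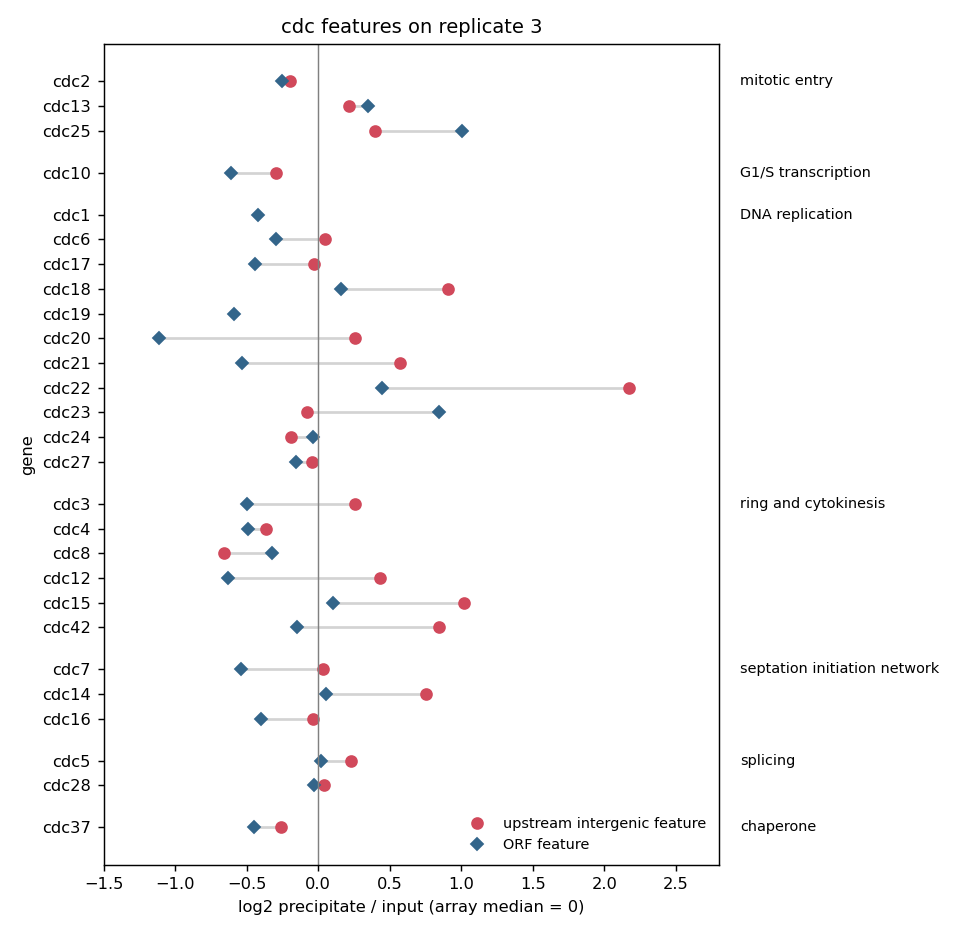
Log2 precipitate over input on replicate 3, the array that measured nearly all members, for the upstream intergenic feature (circles) and the ORF feature (diamonds) of each cdc gene, grouped by role. In 20 of 25 genes the circle lies right of the diamond, farthest for cdc22 at 2.17 against 0.44. With the sign of the array turned, it would lie right in 5 of 25.

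As a set, the cdc intergenic features differed from all intergenic features by less than the spread between arrays, and the cdc ORFs lay slightly below all ORFs. The cdc intergenic features had medians of 0.59, 0.98 and 0.05 on replicates 1, 2 and 3, against 0.58, 0.63 and 0.15 for all intergenic features. The difference averaged 0.09 ± 0.24 and changed sign between arrays. The cdc ORF features had medians of -0.43, -0.50 and -0.29, against -0.39, -0.15 and -0.12 for all ORF features. That difference was below 0 on each array, from -0.35 to -0.04, and averaged -0.19 ± 0.15, so it exceeded the spread between arrays only slightly. With replicate 3 turned the differences averaged 0.15 ± 0.18 for intergenic features and -0.07 ± 0.26 for ORFs. The coordinates of the cdc gaps had a median GC content of 31.3%, against 31.2% for all gaps, and the cdc ORFs had 38.9%, against 38.9% for all ORFs. The cdc ORFs were longer, with a median of 1823 bases against 1251. With GC content and length removed, the cdc ORF minus all ORF difference averaged -0.19 ± 0.16.

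**Figure D4:**
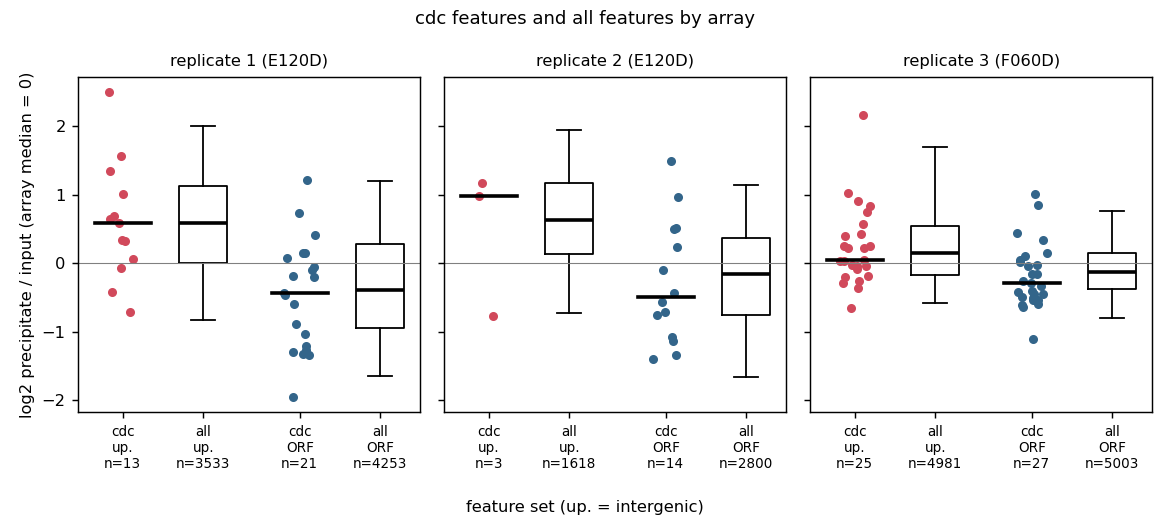
Log2 precipitate over input on each array for cdc features (points, median as a black bar) beside all features of the same kind (box from the 25th to the 75th percentile, whiskers from the 5th to the 95th, median as a black bar). The cdc ORF medians of -0.43, -0.50 and -0.29 lie below the ORF medians of -0.39, -0.15 and -0.12, and the cdc intergenic medians lie on both sides of theirs.

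A list of 68 names for other cell cycle genes, of which 53 were found on the arrays, was described in the same way. The list included mcm2, which is cdc19 and was counted only among the members. Of its 15 intergenic features measured on all arrays, 1 was called above the array median and 0 below, and 2 were on the binding list, against 25.4% above, 0.904% below and 30.0% on the list among all intergenic features. The feature called above was the region upstream of wee1, the kinase that holds the mitotic kinase inactive and is opposed by cdc25. It read 2.02, 1.06 and 1.56 on replicates 1, 2 and 3. All its values were above the array median, and its mean was 1.55 ± 0.48 (limma adjusted p = 0.00022). With replicate 3 turned the mean was 0.51 ± 1.85 (adjusted p = 0.93). Of the list's 29 ORF features measured on all arrays, 0 were called above and 3 below, against 2.89% and 13.3% of all ORF features. The lowest were sid2, a kinase of the septation network, at -1.50 ± 0.67, and ags1, a glucan synthase of the cell wall, at -1.26 ± 0.86, and neither passed with replicate 3 turned (adjusted p = 0.88 each). The medians of feature means were 0.15 for the list's intergenic features and -0.25 for its ORFs, against 0.40 and -0.31 for all features of each kind. The cdc intergenic features and ORFs had medians of 0.33, from 3 features, and -0.58 on the same scale.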

How the data were processed

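Scanner tables of 3 two-colour arrays were used. The authors quantified spots with TIGR Spotfinder, per the labels' protocols, and the deposited tables hold linear intensity per spot after subtraction of the local background, for channels A and B, with rejected spots at 0. The authors' own processing, per the labels' protocols, divided by the 50th percentile, dropped flagged values and listed features whose median rank reached percentile 85. In the deposited value tables the values look like log10 of 1 channel, with -2 where none is given. Their scale, centring and direction are not stated, and they were an alternative only. For the software version and genome build, nothing is given in the sources used here.

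Names came from the scanner tables. The value tables carry ORF and intergenic names the other way round. With names exchanged, their antilog followed the median signal of channel B on replicates 1 and 2 (r = 0.900 and 0.952). On replicate 3 it followed channel A (r = 0.920). For the other channel r was 0.442, 0.256 and 0.539. On a log scale the followed channels had r = 0.704, 0.428 and 0.989, against 0.340, 0.099 and 0.815. Such r values cannot show which source names spots correctly. Control spots named Ef1-b averaged -0.47, -0.66 and 0.71 on replicates 1, 2 and 3. The ORF feature ef1-b averaged -0.48, -0.84 and 0.52, and its intergenic feature 3.39, 1.82 and 3.61. These controls were the ground for using the scanner names. Log2 ratios were centred on the array median. limma 3.58.1 (R 4.3.3) tested means against 0 over the 4285 features with a value on all arrays, with Benjamini-Hochberg adjustment. Its prior made the standard error equal for all features (0.35). In the fit over at least 2 arrays, it was 0.35 for cdc features with 3 values and 0.43 for those with 2. The p-values of both fits thus set each mean against a spread pooled over all features, not against the feature's own spread between arrays. All arrays were of 1 strain. The script was tested on simulated data. The number of arrays limits the precision.

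Features were matched by name to RefSeq ASM294v3, and 95.0% found a gene. ORF features took coding coordinates, and intergenic features the gap before the gene, since PCR product ends were not used here. The members, roles and lists were chosen with earlier results of these data known. Every cdc feature measured on all arrays could be named, with others named as measured on fewer, and of the other cell cycle genes at most 2 of each kind and direction that passed. Neighbours outside this rule are marked in the text.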

Additional observations from a re-analysis of the deposited data

How the results depend on the processing

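The 6 results were recomputed under other settings. The median of duplicate spots gave the main values again, as it must with at most 2 spots for each cdc feature. No paired analysis was possible because there was a single group of arrays. Above the array median, 1 cdc feature in place of 0 (6.77% to 11.4% of all features in these settings) was called with normexp background correction, with loess, with centring on shared features, with at least 2 arrays, with GC content and length removed, without spots flagged S, with centring on each kind of feature and with limma's trend. Below it, in place of 2, 1 was called (2.17% to 5.90% of all features) with loess, centring on shared features, at least 2 arrays and centring on each kind, and 0 (0% to 6.70% of all features) with replicate 3 turned, the deposited value tables (7 of 36 cdc features at an unadjusted p under 0.05, against 14.4% of all), median pixel signal (7 of 17, against 29.7%) and limma's trend (5 of 17, against 28.5%). Leaving out 1 array in turn gave 0 to 1 above (1 without replicate 2), against 4.97% to 11.0% of all features, 0 to 4 below (0 without replicate 1, 4 without replicate 3), against 0.544% to 15.4%, and 1 to 2 on the binding list, against 8.58% to 11.7%. The list held 1 cdc feature in place of 0 with normexp, loess, a floor at the 25th percentile of input signal, GC content and length removed, spots flagged S left out, centring on each kind and ranks within each kind, settings that listed 11.9% to 13.5% of all features. It held 2 of 34 with at least 2 arrays (10.6% of all features), 2 of 36 in the deposited tables (11.4%), 2 of 17 at the 80th percentile (17.8%), 3 of 40 with a low signal assigned to undetected input (9.37%), and 7 of 52 on batch F060D alone (15.0%), which ranks a single array and more features.

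The intergenic minus ORF difference of cdc medians was 0.30 with loess, 0.34 on batch F060D alone, 0.27 with centring on each kind, which removes most of it by construction, and -0.017 in the deposited value tables. Leaving out 1 array gave 0.68 to 1.25. With GC content and length removed the difference was 0.45, with the floor on input signal 0.53 and with normexp 1.49. The cdc intergenic minus all intergenic difference was -0.25 with loess and -0.26 in the deposited tables, and -0.05 to 0.18 without 1 array. The cdc ORF minus all ORF difference was 0.017 with a low signal assigned to undetected input, and -0.26 to -0.11 without 1 array. Except by construction, the cause was not tested. The alternatives on signal column, undetected input, flags, centring by kind, features used for medians and ranks within kind were chosen after seeing the data. Signal over background limits most the cdc intergenic features, of which 3 of 26 have a value on all arrays.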

Other observations

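Among the other cell cycle genes, some upstream regions lacked a value on replicate 2 and were above the array median on both other arrays. These were picked after their values were seen. Upstream of srw1, which encodes an activator of the anaphase-promoting complex, the values were 1.01 and 1.24 on replicates 1 and 3. That of rng2, an IQGAP of the contractile ring, read 1.04 and 0.69. That of rad21, the kleisin subunit of cohesin, read 1.06 and 0.52. The region upstream of pol1, the catalytic subunit of polymerase alpha, read 1.03, 1.09 and 0.17 on replicates 1, 2 and 3, and was on the binding list although its mean of 0.76 ± 0.52 did not pass limma's test (adjusted p = 0.11). Upstream of mob1, a partner of the Sid2 kinase, the feature was among the lowest of the list, at -1.07, -1.19 and -0.43, a mean of -0.90 ± 0.41 (adjusted p = 0.052).

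Within the gaps of cdc genes that carry a feature named for each flanking gene, the features did not always read alike. In the gap before cdc15, the cdc15 feature read 1.02 on replicate 3 and the SPAC20G8.06 feature read 1.23 there and 2.44 on replicate 1. In the gap before cdc21, the cdc21 feature read 0.57 on replicate 3, the only array that measured it. The SPCC16A11.16c feature read 0.04, 0.74 and -0.56 on replicates 1, 2 and 3.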
